A study of Mus musculus with 6 samples.

Results

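The structural proteins of peripheral myelin were examined through 8 genes, Mbp, Pmp22, Mag, Prx, Mal, Cnp, Pmp2 and Gjb1, which were chosen by name and found by their symbols among the 36793 genes of 1 deposited table. RNA had been sequenced from dorsal root ganglia of lumbar levels 3 and 4 in 6 mice. Mice 1 to 3 are labelled wild type and mice 4 to 6 as knockouts of the NMDA receptor, and by the series title the knockout removes the GluN1 subunit gene, Grin1, from Schwann cells. The sources used here do not give the driver of that deletion, any allele the wild-type mice carry, or the strain, age and sex. None of the 8 genes passed the test between knockout and wild type. Normalised counts of 5 of them, Gjb1, Mag, Prx, Cnp and Mal, were higher in all 3 knockout libraries than in any wild-type library. The same held for 10.3% of all genes, and knockout libraries 5 and 6 are counted as 1 sample below. Pmp2 was high in 1 knockout sample and low in the other.

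Schwann cells wrap the larger axons of peripheral nerve in spirals of membrane. Most of the spiral is compact myelin, where the membranes are pressed together by membrane proteins on their outer faces and by basic proteins on their cytoplasmic faces. The cytoplasm that remains runs along the inner and outer edges, the ends of each segment and narrow channels through the sheath, and this non-compact myelin holds other proteins for axon contact, gap junctions and anchoring to the cytoskeleton. Within the ganglion, myelinating Schwann cells lie along the nerve fibres between neuron cell bodies, which are themselves covered by satellite glia. Several of the 8 genes are also used by the oligodendrocytes of the central nervous system.

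The libraries held 28526704 to 36249163 expected counts, which are read counts per gene as estimated by RSEM. Between knockout libraries 5 and 6, 0 of the 10258 genes compared, which averaged 20 or more counts, none of them fractional, differed by chi-square at a false discovery rate of 0.05, against 3382 to 7317 genes in the other pairs of libraries. Their mean chi-square was 1.15 per gene, where sampling alone gives 1 and the other pairs gave 13.2 to 104. Since the chi-square test called 0 of these genes, libraries 5 and 6 were counted as 1 sample, which leaves 3 wild-type and 2 knockout samples. The samples are labelled as Schwann cells with the ganglion as their source, and the markers fit the whole ganglion. Summed over 10 neuron markers the level was 16220 to 23737 TPM (transcripts per 1000000, a level per transcript length) in the 6 libraries, and over 6 markers of myelinating Schwann cells it was 1521 to 3024 TPM. The oligodendrocyte genes Mog, at 0.08 to 0.37 TPM, and Opalin, with 1 count in wild type 2 and 0 in the other libraries, were near or at 0, while Mobp, which oligodendrocytes also use, was at 6.48 TPM in wild type 1 and 0.76 to 3.11 TPM elsewhere. Cldn11, a claudin of oligodendrocyte myelin, was the highest of this list on average, at 3.39 to 7.76 TPM, and the other 4 were at 0 to 0.7 TPM. Grin1 was at 68.6 to 114 CPM in wild type and 81.5 to 116 CPM (counts per 1000000) in knockout. Neurons also express Grin1 and, by the title, the deletion is in Schwann cells, so this level in whole ganglia does not check the labels. In bulk tissue, fewer cells of a type and less RNA per cell cannot be told apart.

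Per length, the 8 genes spanned more than 2 orders of magnitude. Pmp22, a tetraspan protein of compact myelin whose gene dosage is known to cause inherited neuropathy, was the most abundant, at 1654, 1704 and 1888 TPM in wild type 1, 2 and 3, and at 1988, 1792 and 1789 TPM in knockout 4, 5 and 6. Mbp, which encodes the myelin basic proteins of the cytoplasmic face, followed at 1415, 1372 and 1542 TPM in wild type and 1826, 1479 and 1491 TPM in knockout. Pmp22 was above Mbp in all 6 libraries. Together they made up 83.7 to 86.2% of the TPM of the 8 genes, which in turn made up 0.356 to 0.446% of all TPM.

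Cnp, Mal and Prx formed the next level, with mean wild-type values of 159, 158 and 151 TPM. Their order was not stable. Prx ranged from 130 to 181 TPM among the wild-type mice and exceeded both others in wild type 2 only, and with CPM divided by the gene length Mal stood just above Cnp. Pmp2 was far more even in wild type, at 40.2, 40.3 and 41.2 TPM. Mag, at 16.8, 22.3 and 18.8 TPM, lay below Pmp2 in wild type and knockout 4 but above it in knockout 5 and 6. Gjb1 was the lowest in every library, at 7.0 to 12.7 TPM.

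**Figure D1:**
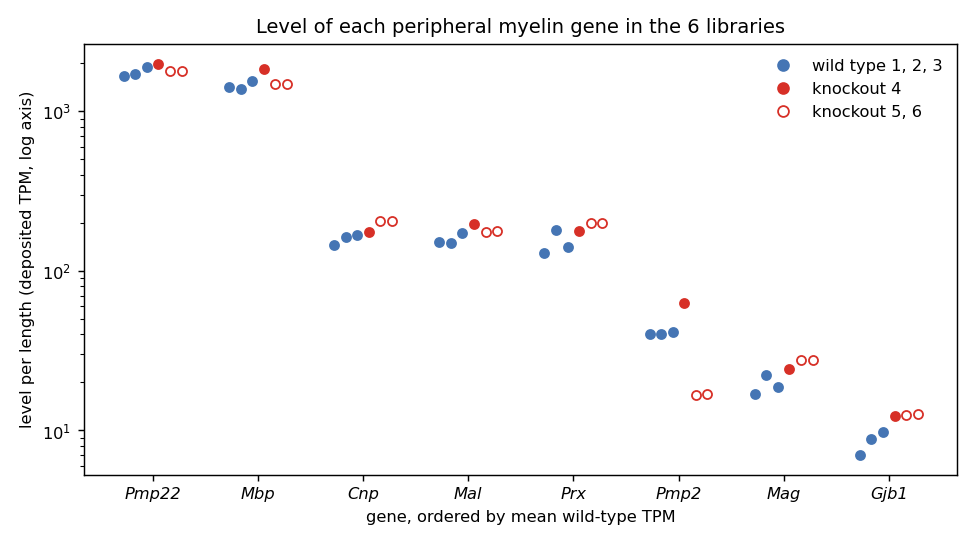
Level per length of each gene in deposited TPM on a log axis, with 1 point per library and genes ordered by their mean wild-type level. Pmp22 and Mbp lie between 1372 and 1988 TPM, and Pmp2 is the gene whose knockout libraries separate most widely, from 16.7 to 63.0 TPM.

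Knockout and wild type were compared to ask whether loss of the receptor in Schwann cells goes with a change in the transcripts of the myelin sheath. For this comparison levels are TMM-normalised CPM, counts per 1000000 scaled so that most genes agree between libraries, and the test is edgeR's quasi-likelihood test with adjustment over 16809 genes. Of the 8 genes, 0 passed at an adjusted p of 0.05, against 0.0952% of all genes tested. An unadjusted p under 0.05 was found for 3 of 8, all higher in knockout, against 5.15% of all genes that were higher at this level. Neither DESeq2 nor limma called any of the 8. The log2 fold change was positive for 7 of 8 genes, with a median of 0.27, where 50.2% of all genes were positive and their median was 0.0012. Without knockout 4 the median was 0.25, and without knockout 5 and 6 it was 0.35.

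The groups did not overlap for 5 of the 8 genes, with the knockout libraries above, as for 10.3% of all genes. For 0 of the 8 they were all below, as for 14.1% of all genes. In deposited TPM the knockout libraries were above for 4 of the 8, since Prx was at 181 TPM in wild type 2 and 178 TPM in knockout 4, against 9.45% of all genes.

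**Figure D2:**
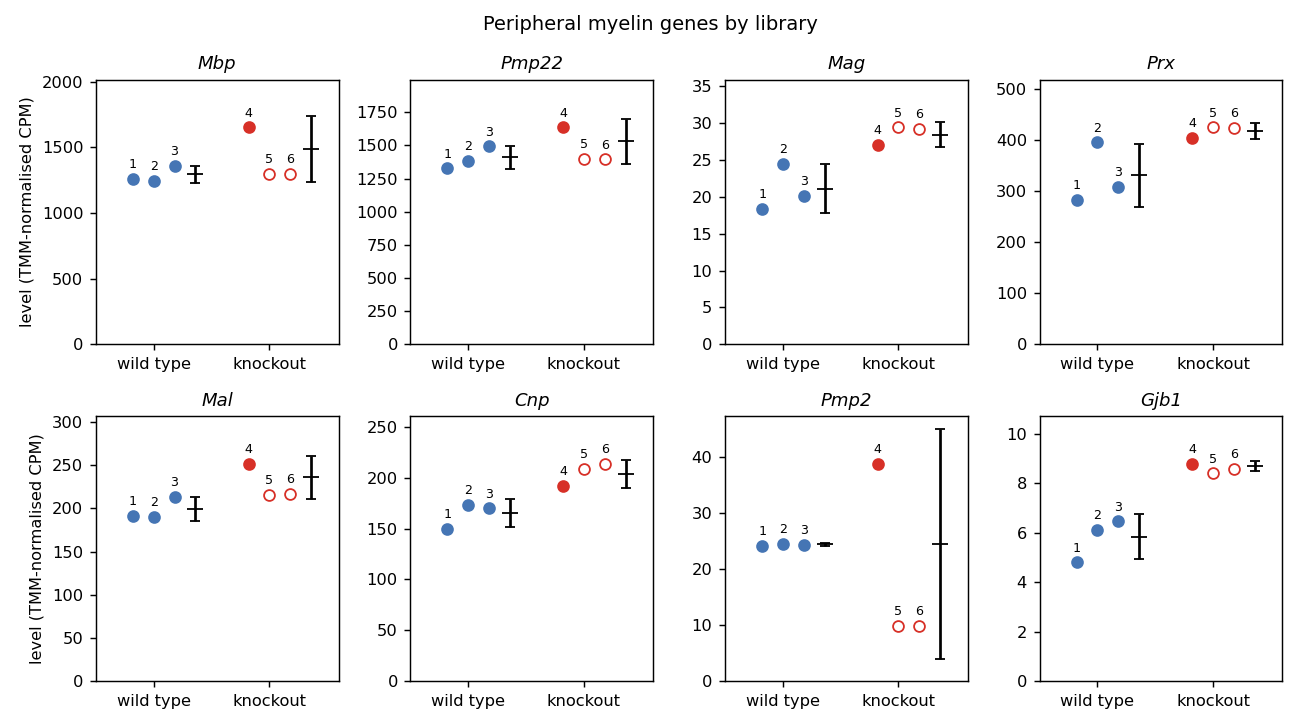
Level of each gene in TMM-normalised CPM by library, labelled by mouse number, with the mean and SD over samples beside each group (n = 3 and n = 2, with the open points of knockout 5 and 6 counted as 1 sample). Gjb1, Mag, Prx, Cnp and Mal show no overlap between groups, and Pmp2 lies at 38.7 CPM in knockout 4 and at 9.75 and 9.82 CPM in knockout 5 and 6.

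Among the proteins of compact myelin, Mbp (chromosome 18, 82475146 to 82585637, GRCm38) stood at 1258, 1241 and 1359 CPM in wild type 1, 2 and 3, against 1651, 1295 and 1295 CPM in knockout 4, 5 and 6. Knockout 4 was the highest library, while knockout 5 and 6 lay within the wild-type range. Mean levels were 1294 ± 65.0 CPM (SD, n = 3) and 1486 ± 251 CPM (SD, n = 2). This log2 fold change of 0.20 ± 0.13 (SE) did not pass (edgeR adjusted p = 0.677). Without knockout 4 this was 0.02.

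Pmp22 (chromosome 11, 63128982 to 63159547) had the same shape. It stood at 1326, 1382 and 1492 CPM in wild type 1, 2 and 3, against 1636, 1400 and 1394 CPM in knockout 4, 5 and 6, so knockout 4 was again the highest and the other knockout libraries lay among the wild type. The log2 fold change was 0.12 ± 0.12 (SE; edgeR adjusted p = 0.769), and the 95% interval of -0.17 to 0.40 leaves room for a small difference in either direction. Without knockout 4 it was 0.0045.

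Mal (chromosome 2, 127633226 to 127656695) encodes a tetraspan proteolipid of the lipid-rich membrane domains of myelin. It stood at 191, 190 and 213 CPM in wild type 1, 2 and 3, against 251, 215 and 217 CPM in knockout, with knockout 4 the highest and knockout 5 and 6 just above wild type 3. For Mal the log2 fold change was 0.24 ± 0.12 (SE; edgeR adjusted p = 0.581), and 0.13 without knockout 4.

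Pmp2 (chromosome 3, 10179851 to 10183929) encodes the fatty acid binding protein of peripheral myelin, a small protein of the cytoplasmic face that carries lipids and stacks membranes. Its 3 wild-type libraries were nearly equal, at 24.0, 24.4 and 24.3 CPM, from 802, 776 and 711 counts. Knockout 4 was at 38.7 CPM from 1136 counts, and knockout 5 and 6 at 9.75 and 9.82 CPM from 340 and 314 counts. The knockout samples therefore lay on opposite sides of the wild type, at 1.6 and 0.405 times its mean, and differed from each other 3.94-fold.

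The group means of Pmp2 were alike, 24.4 ± 0.275 CPM (SD, n = 3) for wild type against 24.4 ± 20.5 CPM (SD, n = 2) for knockout, and the difference on the log2 scale was -0.01, with a 95% interval of -1.20 to 1.18 (edgeR adjusted p = 0.995). Without knockout 4 this difference was -1.3 (edgeR adjusted p = 0.162), and without knockout 5 and 6 it was 0.67 (edgeR adjusted p = 0.463). Neither passed. Of 14618 genes with a mean of at least 1 CPM, 35 genes, Pmp2 among them, had a gap between knockout 4 and the sum of knockout 5 and 6 as large as that of Pmp2, and the median gap was 0.20 on the log2 scale. Pmp2 was singled out here after its values were seen. In GENCODE vM21 it shares exon sequence with Gm37389 on its own strand, and its transcript there has 1408 bases against a deposited length of 1364. Its counts were whole in all 6 libraries. The annotation used for counting is not given and may lack Gm37389, so whole counts do not show whether reads were shared.

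Among the proteins of non-compact myelin, Gjb1 (chromosome X, 101376378 to 101385629) encodes the connexin of the gap junctions that link successive turns of the sheath. It stood at 4.80, 6.13 and 6.46 CPM in wild type 1, 2 and 3, against 8.78, 8.40 and 8.57 CPM in knockout 4, 5 and 6, from 160 to 195 and 258 to 293 counts. All knockout libraries were above all wild-type libraries, and they lay close together. The means were 5.84 ± 0.904 CPM (SD, n = 3) and 8.71 ± 0.194 CPM (SD, n = 2), a 1.49-fold difference with a 95% interval of 1.13 to 1.98 and a log2 fold change of 0.58 ± 0.17 (SE; edgeR unadjusted p = 0.0123, adjusted p = 0.393). It was 0.47 to 0.66 under the alternatives.

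Mag (chromosome 7, 30899176 to 30914873) encodes the sialic acid binding adhesion molecule of the membrane that faces the axon. It stood at 18.3, 24.5 and 20.1 CPM in wild type 1, 2 and 3, against 27.1, 29.4 and 29.2 CPM in knockout. The libraries did not overlap, with wild type 2 the nearest to the knockout. A log2 fold change of 0.43 ± 0.15 (SE) did not pass (edgeR unadjusted p = 0.0274, adjusted p = 0.489).

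Cnp (chromosome 11, 100574904 to 100591729) encodes a cyclic nucleotide phosphodiesterase that binds the cytoskeleton and keeps cytoplasmic channels in myelin open. It stood at 150, 174 and 170 CPM in wild type 1, 2 and 3, against 192, 209 and 214 CPM in knockout. Again the knockout libraries were above all wild-type libraries. Between the groups the log2 fold change was 0.30 ± 0.12 (SE; edgeR unadjusted p = 0.0397, adjusted p = 0.522).

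Prx (chromosome 7, 27499324 to 27520214) encodes periaxin, a scaffold that ties the outermost Schwann cell membrane to the dystroglycan complex through Drp2. It stood at 282, 395 and 308 CPM in wild type 1, 2 and 3, against 404, 425 and 424 CPM in knockout. The gap between the groups was narrow, since wild type 2 lay just under knockout 4. Its difference on the log2 scale was 0.34 ± 0.16 (SE; edgeR adjusted p = 0.577). Exons of Prx and Cnp overlap genes on the opposite strand, Gm15541 and Dnajc7, and the expected counts of both were not whole in any library, so part of their reads was shared between genes. The strand setting of the counting is not known.

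**Figure D3:**
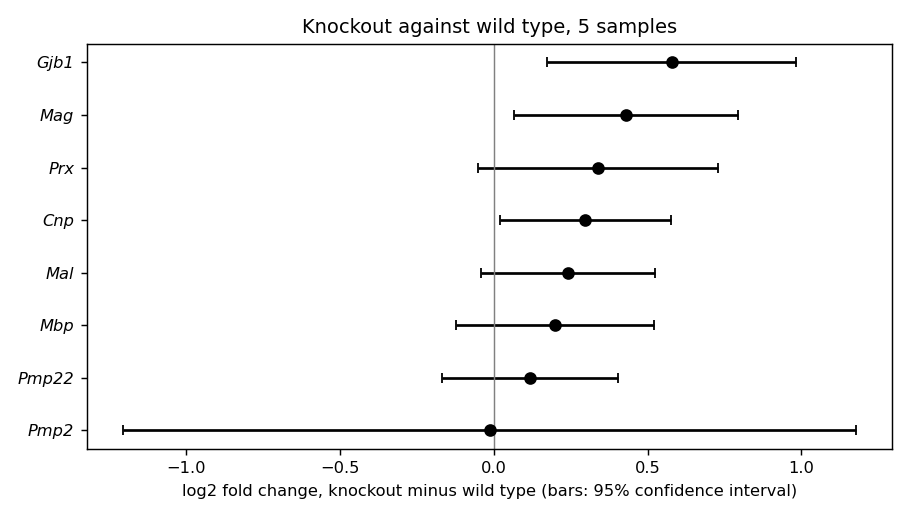
Log2 fold change of each gene, knockout minus wild type, with its 95% confidence interval from edgeR over 5 samples. The unadjusted intervals of Gjb1, Mag and Cnp lie above 0, and that of Pmp2 runs from -1.20 to 1.18.

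The genes thus fell into several shapes across the knockout samples, a grouping made after the values were seen. Mbp, Pmp22 and Mal were at 1.29, 1.17 and 1.27 times the wild-type mean in knockout 4, and at 1.01, 1.00 and 1.10 times in knockout 5 and 6. Mag, Prx and Cnp were at 1.29, 1.23 and 1.17 times in knockout 4 and at 1.40, 1.3 and 1.29 times in knockout 5 and 6. Gjb1 was at 1.52 and 1.47 times, and Pmp2 at 1.6 and 0.405 times. The balance between genes moved accordingly: Prx was at 9.17, 13.2 and 9.21% of the Mbp level per length in wild type, at 9.77% in knockout 4, and at 13.5 and 13.3% in knockout 5 and 6. Wild type 2 was thus close to knockout 5 and 6 in this ratio, and knockout 4 to wild type 1 and 3.

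The sequences before the start sites of the 5 genes whose groups did not overlap are shown because these genes share that direction. They are from RefSeq on GRCm38.p6, and of the 8 genes 6 matched with 14 windows of 250 bases before a start, Mbp and Pmp2 being the others. The letters searched, on both strands, were GTGGGCG, a core bound by EGR factors such as Egr2, ACAAAG and ACAAT, cores bound by SOX factors such as Sox10, and TATAAA. Capitals mark the matches, and annotated exon bases were left out.
Gjb1 before its most downstream start (chrX:101383482-101383731, plus strand): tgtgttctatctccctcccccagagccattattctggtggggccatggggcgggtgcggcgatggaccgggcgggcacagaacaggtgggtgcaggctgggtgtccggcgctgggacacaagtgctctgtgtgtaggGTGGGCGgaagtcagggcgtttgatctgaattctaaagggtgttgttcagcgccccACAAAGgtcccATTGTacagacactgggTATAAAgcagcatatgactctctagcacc
Mag (chr7:30914923-30915172, minus strand): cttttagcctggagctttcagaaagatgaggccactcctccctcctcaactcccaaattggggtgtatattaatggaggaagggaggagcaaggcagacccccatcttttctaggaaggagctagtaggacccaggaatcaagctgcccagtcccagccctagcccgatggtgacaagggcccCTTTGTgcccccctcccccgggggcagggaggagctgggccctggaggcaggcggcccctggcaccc
Cnp (chr11:100574689-100574903, plus strand): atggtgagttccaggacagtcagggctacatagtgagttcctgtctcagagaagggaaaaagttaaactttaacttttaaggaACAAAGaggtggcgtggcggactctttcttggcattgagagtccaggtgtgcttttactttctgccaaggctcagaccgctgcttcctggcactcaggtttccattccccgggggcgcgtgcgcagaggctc
Prx (chr7:27499074-27499323, plus strand): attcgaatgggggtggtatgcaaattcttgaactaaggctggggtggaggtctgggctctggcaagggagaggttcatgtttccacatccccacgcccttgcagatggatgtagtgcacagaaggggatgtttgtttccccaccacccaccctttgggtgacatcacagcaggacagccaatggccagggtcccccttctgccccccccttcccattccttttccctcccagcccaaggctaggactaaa
Mal (chr2:127656696-127656945, minus strand): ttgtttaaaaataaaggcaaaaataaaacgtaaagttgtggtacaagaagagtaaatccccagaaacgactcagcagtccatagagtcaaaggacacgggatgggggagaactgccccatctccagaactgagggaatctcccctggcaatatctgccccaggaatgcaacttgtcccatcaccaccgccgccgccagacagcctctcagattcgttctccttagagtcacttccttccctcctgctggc
Over all 32851 windows in the RefSeq table, 7.02% held GTGGGCG, 16.5% ACAAAG, 27.7% ACAAT and 12.4% TATAAA. Of the 14 windows of these genes only the Gjb1 window printed here held GTGGGCG, and it also held the other 3 strings. The printed windows of Mag and Cnp held ACAAAG, and those of Prx and Mal held none of the 4. Mag and Gjb1 had further windows, not printed. The Mag window next to the start of its transcript in the table (chr7:30914322-30914571) held none of the 4. Gjb1 windows before its other starts held at most ACAAAG and ACAAT. A match describes these letters and does not show binding.

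RSEM also reports for each library a gene length weighted by the transcripts it found, which does not enter the count test. Gjb1 has 3 transcripts in the table, of 1513, 1565 and 1585 bases, and the longest starts at 101383736, next to the sequence printed above. The weighted length of Gjb1 was 1550, 1551 and 1521 bases in wild type and 1565, 1564 and 1568 bases in knockout, so the groups did not overlap, though a mean length cannot say which of the transcripts differed. This held for 1 of the 6 members whose length varied and, in either direction, for 10.1% of all such genes. For Cnp it was 2286, 2331 and 2291 bases in wild type and 2384, 2327 and 2377 bases in knockout. Knockout 5 and 6, which count as 1 sample, differed by about as much as the wild-type mice in this estimate for Cnp. Mbp, whose transcripts start at a distant upstream or a downstream group of sites, varied by 1.5% over the libraries, and Pmp22 by 0.447%. Mag and Pmp2 have 1 transcript in the table and a constant length.

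The other genes of the sheath were taken from lists chosen with earlier results of these data known. Of 14 other peripheral myelin proteins, 12 had a positive and 2 a negative log2 fold change, the median being 0.29. In edgeR 0 passed, and 0 by DESeq2. At an edgeR unadjusted p under 0.05 there were 5, all higher, against 5.15% of all genes that were higher at this level. Cd9, a tetraspanin, was at a log2 fold change of -0.03 and S100b, a calcium-binding protein of glia, at 0.03. The knockout libraries were above the wild type for 6 of the 14 and below for 0, against 10.3% and 14.1% of all genes.

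All 8 enzymes of myelin lipid synthesis had positive values, the median being 0.24. In edgeR 0 passed (2 at an unadjusted p under 0.05, both higher, against 5.15% of all genes). The most abundant were Scd2, a fatty acid desaturase, at 0.17, Cers2, a ceramide synthase, at 0.09, and Elovl1, an elongase of very long fatty acids, at 0.26. Of 12 regulators of myelination 11 had positive values, the median being 0.21 and the range -0.08 to 1.00. Again 0 passed in edgeR (2 at an unadjusted p under 0.05, both higher, against the same 5.15%). Without knockout 5 and 6, 8 of the 12 were positive. The most abundant were Srebf2 and Srebf1, which drive lipid synthesis genes, at 0.09 and 0.29, and Sox10, the factor that defines the Schwann cell lineage, at 0.18. Sox10 was at 0.05 without wild type 3 and 0.39 without wild type 2. Of the 7 measured of 8 negative regulators, 4 were positive and 3 negative, with a median of 0.0094 and 0 passing edgeR (0 at an unadjusted p under 0.05). The median was 0.21 without wild type 1 and -0.09 without wild type 3. Ngfr, the low-affinity neurotrophin receptor, was at 0.42, Jun, a transcription factor of injured Schwann cells and neurons, at 0.71, and Id4, an inhibitor of basic helix-loop-helix factors, at -0.27. Jun was at 1.08 without knockout 4 and 0.20 without knockout 5 and 6, and Ngfr at 0.66 and 0.13. DESeq2 called 0 genes of any of these lists.

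**Figure D4:**
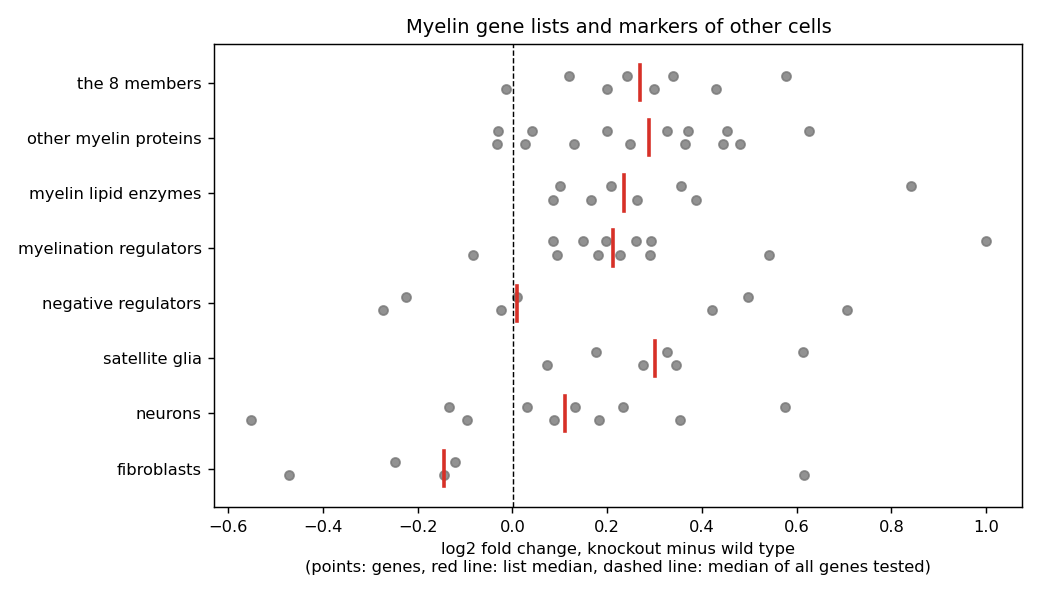
Log2 fold changes, knockout minus wild type, of the genes in each list, with the list median as a red line and the median of all genes tested as a dashed line. The 8 genes have a median of 0.27, satellite glia markers 0.30, neuron markers 0.11 and fibroblast markers -0.15.

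Markers of other cells moved beside these genes, and their part in the values above was not tested. All 6 satellite glia markers were positive with a median of 0.30, and their summed level was 5270 to 5804 TPM in wild type and 5978 to 6579 TPM in knockout. The neuron markers had a median of 0.11 and overlapping sums, 16220 to 21034 TPM and 19068 to 23737 TPM. Of 5 fibroblast markers 4 were negative, with a median of -0.15 and sums of 2312 to 3162 TPM and 2085 to 2825 TPM. The groups overlapped for each of these 4. The other marker, Col1a1, was at 0.61 (edgeR unadjusted p = 0.0017, adjusted p = 0.249). Its levels were 60.8 to 72.5 CPM in wild type and 95.4 to 106 CPM in knockout. All 4 endothelial markers were positive, with sums of 33.0 to 35.0 TPM and 43.7 to 47.7 TPM. In edgeR 0 of these 25 markers passed. An unadjusted p under 0.05 was found for 4 that were higher and 1, the neuron gene Syt1, that was lower. Over all 16809 genes tested, 866 were higher and 671 lower at this level.

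Within single libraries, knockout 4 stood apart in blood and muscle. Its red blood cell markers summed to 59732 TPM, against 12738 to 24471 TPM in the other libraries, and its skeletal muscle markers to 58.6 TPM, against 5.20 to 19.9 TPM. Knockout 4 was also the library in which Mbp, Pmp22, Mal, Pmp2 and, narrowly, Gjb1 were highest in CPM. Nefm, a neurofilament of large neurons, was singled out after its values were seen. It stood at 2474, 4599 and 3106 CPM in wild type 1, 2 and 3, against 3563, 6552 and 6498 CPM in knockout. Its log2 fold change of 0.58 was the largest of the 10 neuron markers, of which 7 were positive and 3 negative. Wild type 2 was the highest wild-type library for Nefm, Mag, Prx and Cnp, and knockout 5 and 6 were the highest of all for each. The same order held for the neuron markers Nefl, Rbfox3, Snap25 and Tubb3, but not for Syt1, Elavl4, Prph, Uchl1 and Stmn2. It was thus not particular to Nefm. Over the 10258 genes compared by chi-square, the mean was 28.9 between wild type 2 and knockout 5. Between wild type 2 and wild type 1 it was 54.0, and between wild type 2 and wild type 3 it was 31.6. Whether the mix of neurons and fibres in a ganglion moved these genes was not tested.

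Genes whose profile over the 5 samples was most like the mean of the 8 genes were ranked by the root mean square difference of centred log2 CPM among 14450 candidates. The closest were Mmp11, a matrix metalloprotease, at 0.0086, Dap at 0.02, Tmem38b at 0.03, Uba7 at 0.03, Yjefn3 at 0.03, Fgf5 at 0.04, Shpk at 0.04, Il3ra at 0.04, Pard6g at 0.05 and Trip6 at 0.05. The 8 genes themselves lay farther from their mean, from 0.07 for Mbp to 0.21 for Gjb1 and 0.60 for Pmp2. The median over the candidates was 0.24, and 10.9% of them lay within the median distance of the 8 genes, so such a profile was common. The mean rests in part on Pmp2: its centred value in knockout 5 and 6 was -0.01 with Pmp2 and 0.16 without it, and without Pmp2 none of these 10 genes was among the nearest 10 (0 shared).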

How the data were processed

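Per the submitters' processing notes, the tools were Trimmomatic 0.38 for trimming, STAR 2.6.0a for alignment to GRCm38 and RSEM 1.3.0 for quantification. The sources used here do not give the annotation release or strand setting. Deposited by the authors were expected counts, TPM, FPKM and gene lengths per library. The deposited TPM served for levels between genes and as an alternative in tests, and the deposited FPKM only to check the order of levels. GENCODE vM21 gave gene symbols, positions and GC content, and matched 35243 of 36793 genes.

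Expected counts were rounded, filtered with filterByExpr, scaled by TMM and tested with edgeR 4.0.16 (quasi-likelihood, two-sided, genotype as the only term, Benjamini-Hochberg at 0.05) in R 4.3.3, with libraries 5 and 6 summed. Standard errors are the absolute log2 fold change over the square root of the F statistic. Intervals (95%) use the moderated degrees of freedom and are not adjusted. SDs are over samples. Alternatives included DESeq2 1.42.0 and limma 3.58.1. The scripts were tested on simulated data. The labels do not say how animals were chosen, so p-values refer only to these samples. They set each difference against a spread between samples that is moderated over all genes tested. Named are the 8 genes, the 3 most abundant members of each list where none passed (1 gene is not reported here), and the 10 nearest profiles. Members and lists were chosen with earlier results of these data known.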

Additional observations from a re-analysis of the deposited data

How the results depend on the processing

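No paired analysis was possible because no replicate number occurs in both groups. None of the 8 myelin genes passed under any of 20 alternatives: the smallest adjusted p was 0.115 (edgeR, Gjb1, 6 libraries counted separately). Using library 5 or library 6 alone, TPM for the overlap of groups, and the mean profile without Pmp2 were chosen after seeing the data. The log2 fold change of 7 of the genes kept its direction, and GC correction lowered the median over all 8 from 0.27 to 0.20. The value of Pmp2, at -0.01, turned to 0.013 in DESeq2, 0.0060 with GC correction and 0.0083 with library 5 alone, and ran from -1.30 to 0.67 with replicates left out, turning without wild type 1 (0.0027). Without scaling factors S100b turned to -0.0022, and with GC correction Srebf2 turned to -0.032. With replicates left out, Cd9 ran from -0.12 to 0.052, Scd2 from -0.0020 to 0.32, Srebf2 from -0.32 to 0.42 and Srebf1 from -0.068 to 0.58. Srebf2 was at -0.042 and Cd9 at 0.0086 without wild type 1, and all 4 turned without knockout 5 and 6. With replicates left out, Ngfr ran from 0.13 to 0.67, Jun from 0.20 to 1.08, Sox10 from 0.05 to 0.39, Elovl1 from 0.15 to 0.37 and Cers2 from 0.02 to 0.15. The median of negative regulators was 0.23 with no filter, -0.06 with GC correction and -0.03 with upper-quartile or no scaling factors, and that of lipid enzymes 0.35 without knockout 5 and 6. The causes were not tested. The 16 genes called over all genes became 144 with 6 separate libraries, 255 in DESeq2, 81 with no filter, 27 with limma-voom, 25 with GC correction, 30 at an adjusted p of 0.10, and 7 to 14 with replicates left out. Leaving out knockout 4, or 5 and 6, leaves 1 knockout sample, assumed to vary like wild type. Depth limits Gjb1 most, with 160 to 293 counts per library.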

Other observations

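Genes with a profile over the 5 samples like that of Pmp2 were sought after its values were seen, by the same difference of centred log2 CPM. The nearest was Rbp4, a retinol carrier, at 0.18, with 1.11, 1.04 and 1.20 CPM in wild type and 2.38, 0.717 and 0.313 CPM in knockout 4, 5 and 6. Slc15a2, a peptide transporter, was the most abundant of the 10 nearest, at 22.1, 18.7 and 15.8 CPM in wild type and 20.6, 7.28 and 6.35 CPM in knockout, so that it was low in knockout 5 and 6 but not high in knockout 4. None of the 10 genes was a member of the myelin lists.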
